A study of Mus musculus with 19 samples.

Results

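The inhibitor of κB kinase (IKK) complex and the kinases and adaptors that act upstream of it were followed in the suprarenal abdominal aorta (SRA) of 19 male mice by bulk RNA-Seq. The 10 genes were taken by symbol from the 20408 genes of the deposited table: Ikbkb, Chuk and Ikbkg of the IKK complex, the IKK-related kinases Ikbke and Tbk1, and Map3k7, Map3k14, Traf2, Traf6 and Ripk1 upstream. All 10 were listed, and all 10 passed the filter on low values that left 14845 genes for testing. The mice were on a C57BL/6J background and ApoE-/-. Their given age is 8 weeks, the age at which the study began tamoxifen, so they were older when the SRA was taken. The SRA was taken after 24 h of infusion with saline or with angiotensin II (Ang II). For Ang II the labels give 500 to 1000 ng/min/kg, and the study's methods for these samples give 1000 ng/min/kg. IKKβ-/- mice carried a floxed Ikkb gene and a tamoxifen-inducible Cre recombinase driven by the smooth muscle actin promoter (SMA-CreERT2). Their IKKβ+/+ littermates carried the same Cre without the floxed gene, and mice of both genotypes had received tamoxifen. The groups held 5 saline-infused and 5 Ang II-treated IKKβ+/+ mice, and 4 saline-infused and 5 Ang II-treated IKKβ-/- mice. Cre was limited to smooth muscle cells, so the other cells of the wall kept the gene, and the floxed exon is not given in the sources used here.

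The IKK complex joins the kinases IKKα (Chuk) and IKKβ (Ikbkb) to the regulatory subunit NEMO (Ikbkg). Receptors of tumour necrosis factor and of the Toll and interleukin-1 families recruit TRAF ubiquitin ligases and RIPK1, which assemble the scaffold on which TAK1 (Map3k7) phosphorylates IKKβ. IKKβ then marks IκBα for destruction and frees NF-κB, whereas NIK (Map3k14) acts through IKKα on the non-canonical branch, and IKKε (Ikbke) and TBK1 phosphorylate interferon regulatory factors.

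Gene reads ran from 11382573 to 19906694 a mouse, and values are these reads divided by a size factor (normalized counts). Mitochondrial mRNA took 5.99 to 9.07% of the reads in saline-infused and 10.1 to 14.1% in Ang II-treated IKKβ+/+ mice, without overlap. In IKKβ-/- mice it took 8.89 to 38.7% with saline and 7.88 to 37.2% with Ang II. Mice X2385 (Ang II) and X2406 (saline), both IKKβ-/-, stood apart with 37.2% and 38.7% and the lowest depths of their groups. All 7 smooth muscle markers were detected in every group, as were markers of endothelium, fibroblasts and macrophages. Mouse numbers ran in a separate block for each group and the sources name no batch, so batch and group cannot be told apart.

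Levels of the members were compared per kilobase of the principal transcript. Over all 19 mice Ikbkb had 173 ± 31.0 normalized counts per kilobase (SD, n = 19), Map3k7 171 ± 18.5, Tbk1 153 ± 13.4 and Chuk 149 ± 24.1. Ripk1 had 116 ± 18.0, Traf2 92.3 ± 14.8, Ikbkg 89.5 ± 9.65, Traf6 68.6 ± 9.65, Ikbke 47.1 ± 9.85 and Map3k14 28.6 ± 5.50 normalized counts per kilobase. Each step among the 4 kinases at the top was smaller than the larger of the SDs, which span mice of both genotypes, and the same held for Traf2 and Ikbkg. Within the same mouse Ikbkb lay above Map3k7 in 10 of 19 mice, Map3k7 above Tbk1 in 14 and Tbk1 above Chuk in 11. Traf2 lay above Ikbkg in 11 of 19 mice. The order of these neighbours was not tested. By its group means Ikbkb was the highest of the 10 in IKKβ+/+ mice only, with 188 normalized counts per kilobase with saline and 203 with Ang II. In IKKβ-/- mice its mean was 144 with saline, below Map3k7 (166), Tbk1 (153) and Chuk (147), and 153 with Ang II, below Map3k7 (161) and Chuk (155). The catalytic kinase genes Ikbkb and Chuk lay above the regulatory subunit gene Ikbkg on this scale, and the non-canonical kinase gene Map3k14 lay lowest. The place of Ikbkg depends on its transcript length of 6785 bases, against 3580 for Ikbkb and 3502 for Chuk. Without division by length Ikbkg had a mean of 608 normalized counts, above Chuk (522) and below Ikbkb (621). Within groups the coefficient of variation ran from 7.84% for Tbk1 to 19.7% for Ikbke, against 3.27 to 9.36% from counting error alone.

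**Figure D1:**
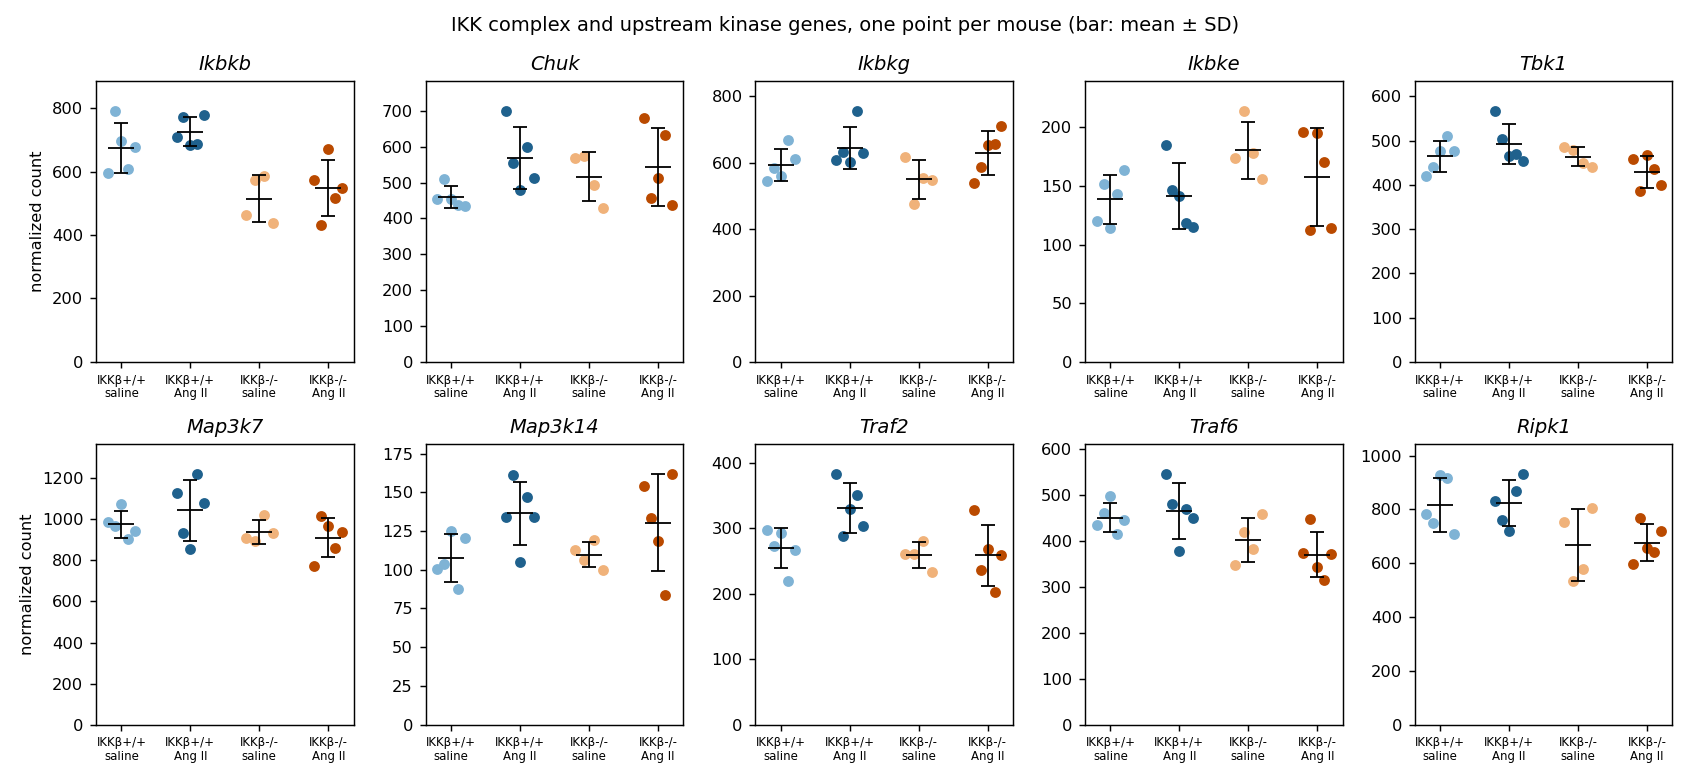
Normalized counts of the 10 genes (vertical axes, from 0) in each of the 19 mice by genotype and treatment (horizontal axes). Points are mice, and bars are the mean and SD of the group. Ikbkb lay at 439 to 586 in saline-infused IKKβ-/- mice, below all 5 saline-infused IKKβ+/+ mice.

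Ikbkb, the gene of IKKβ and the target of the deletion, was lower in IKKβ-/- mice with either infusion. It lies on the minus strand of chromosome 8 (GRCm38 chr8:22659212-22706589), and its principal transcript has 22 exons and 3580 bases. Saline-infused IKKβ+/+ mice had 594, 609, 678, 695 and 791 normalized counts of Ikbkb, and saline-infused IKKβ-/- mice had 439, 464, 572 and 586. Ang II-treated IKKβ+/+ mice had 685, 686, 708, 772 and 779, and Ang II-treated IKKβ-/- mice had 430.2, 515, 549, 572 and 672. The genotypes did not overlap within either infusion, but the highest Ang II-treated IKKβ-/- mouse exceeded the lowest saline-infused IKKβ+/+ mice.

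The mean difference within treatments was -168 normalized counts (two-sided exact permutation test of genotypes within treatments, p = 6.3e-05 over 31752 arrangements), and -176 without X2385 and X2406. With saline it was -158 (exact p = 0.0159) and with Ang II -178 (exact p = 0.00794). In the limma fit across all genes, averaged over treatments, the log2 fold change of Ikbkb was -0.40 ± 0.09 (SE), which is 0.756 times the IKKβ+/+ level with a 95% interval from 0.668 to 0.855 (adjusted p = 0.0232, limma). Counts cover the whole gene, so the remaining Ikbkb signal may include reads of a recombined transcript as well as those of cells without Cre, and the shares of these were not tested.

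A call needed a Benjamini-Hochberg adjusted p below 0.1 over all genes tested together with more than a 1.2-fold change. In saline-infused mice 1 of the 10 members was called, Ikbkb, with a log2 fold change of -0.39 ± 0.12 (adjusted p = 0.0988), where 5.47% of all genes tested were called. That call held in 4 of the 19 fits that left out a mouse, and it was lost without X2385 and X2406 (-0.45, adjusted p = 0.184). Among Ang II-treated mice 0 of 10 were called by limma (0.128% of all genes), and Ikbkb had -0.42 ± 0.12 with an adjusted p of 0.173. At an unadjusted p under 0.05 the count was 2 of 10 with saline and 4 of 10 averaged over treatments, where the shares of all genes are not given here. At that limit the Ang II-treated comparison held 5 of the 10 members, Ikbkb among them, against 14.3% of all genes. DESeq2 called 1 of 10 there, Ikbkb, with an adjusted p of 0.0605. The share of all genes that DESeq2 called there is not given here, and the limma shares do not stand for it. Averaged over treatments 2 of 10 were called, Ikbkb and Ripk1, both lower, where 7.24% of all genes were called in either direction and 3.45% as lower. Genotypes that did not overlap, with IKKβ-/- mice lower, were seen for 4.08% of all genes with saline and for 0.882% with Ang II.

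Macrophage markers and the mitochondrial share moved with genotype as well. Of the 5 macrophage markers, 3 (Cd68, Adgre1 and Lyz2) were called lower in IKKβ-/- mice averaged over treatments, and Csf1r and Mrc1 were not called. The median log2 fold change of the 5 was -0.91 with saline and -0.28 with Ang II. The summed level of all 5 ran from 4621 to 7818 normalized counts in IKKβ+/+ mice and from 2397 to 9317 in IKKβ-/- mice. Other marker lists differed by genotype too. Their medians with saline and with Ang II were -0.76 and -0.21 for endothelium, -0.56 and 0.12 for fibroblast and -2.33 and 1.39 for adipocyte markers. No marker of these lists was called between genotypes. Endothelium and fibroblast scores were not fitted as covariates. With the macrophage score as a covariate Ikbkb had a log2 fold change of -0.30 averaged over treatments and was no longer called (adjusted p = 0.150, limma), and with the mitochondrial share as a covariate it had -0.55 (adjusted p = 0.0346). With the smooth muscle score as a covariate it had -0.41 (adjusted p = 0.00806). In bulk tissue fewer cells of a type and less RNA per cell cannot be told apart.

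Chuk, the gene of the sister kinase IKKα, gave a reference within each library that does not depend on scaling. It lies on chr19:44073335-44107480 (GRCm38, minus strand). Saline-infused mice had 435, 438, 455, 456 and 511 normalized counts of Chuk in the IKKβ+/+ group and 429, 494, 568 and 575 in the IKKβ-/- group. Ang II-treated mice had 478, 513, 554, 599 and 699 in the IKKβ+/+ group and 437, 456, 513, 633 and 681 in the IKKβ-/- group. The genotypes overlapped under both infusions, and the log2 fold change of Chuk averaged over treatments was 0.04 ± 0.10 with a 95% interval from -0.16 to 0.24.

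With saline the ratio of Ikbkb to Chuk was 1.31, 1.39, 1.53, 1.55 and 1.56 in the IKKβ+/+ group, and 0.817, 0.995, 1.02 and 1.19 in the IKKβ-/- group. In Ang II-treated mice the ratio was 1.01, 1.15, 1.39, 1.43 and 1.52 in the IKKβ+/+ group and 0.815, 0.840, 0.943, 1.26 and 1.31 in the IKKβ-/- group. The genotypes were apart with saline and overlapped with Ang II. On the log2 scale the ratio differed by -0.45 averaged over treatments (exact permutation p = 0.00151), by -0.55 with saline (exact p = 0.00794) and by -0.35 with Ang II (exact p = 0.103).

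**Figure D2:**
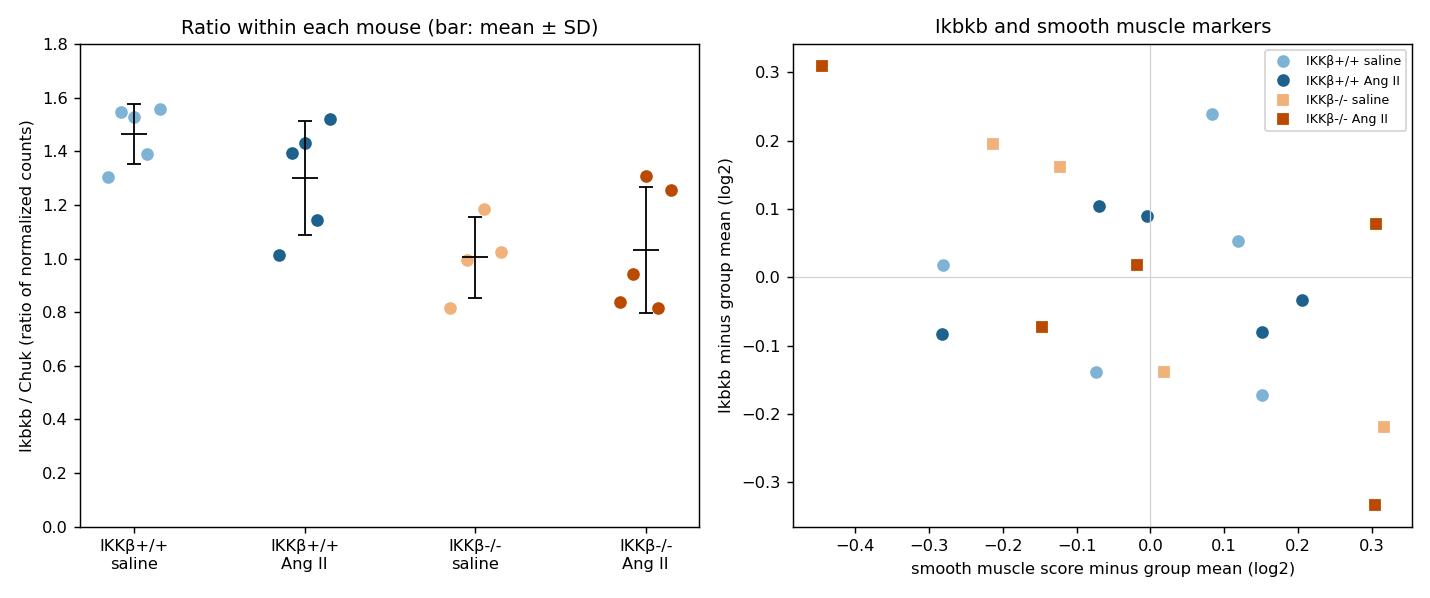
Left, ratio of Ikbkb to Chuk normalized counts in each mouse by group (bars are the mean and SD). Right, Ikbkb against the mean log2 value of 7 smooth muscle markers, both as deviations from the group mean, with circles for IKKβ+/+ and squares for IKKβ-/- mice. The ratio was 0.815 to 1.31 in IKKβ-/- mice and 1.01 to 1.56 in IKKβ+/+ mice, and the IKKβ-/- points fall from left to right (r = -0.76, n = 9).

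Because Cre was driven by a smooth muscle promoter, Ikbkb was set beside the smooth muscle markers of the same mouse. In the 9 IKKβ-/- mice the relation of Ikbkb to the smooth muscle markers was negative (Pearson r = -0.76, permutation p = 0.0295; Spearman rho = -0.73, permutation p = 0.0473). Adjusted over the 2 genotypes these p-values were 0.0591 and 0.0946, and r was -0.55 (n = 7) without the 2 mice farthest from the median score. In the 10 IKKβ+/+ mice r was 0.01 (permutation p = 0.977) and rho was -0.07 (permutation p = 0.864). The difference between the genotypes in this relation was not tested. When all 10 marker lists were taken in both genotypes, a choice made after seeing the data, none of the 20 relations passed adjustment, and the smallest adjusted permutation p was 0.277. The smooth muscle relation did not stand out among them. In the 9 IKKβ-/- mice the red blood cell markers had r = 0.79 (permutation p = 0.0227) and rho = 0.83 (permutation p = 0.0196), and r was 0.89 without the 2 farthest mice. Adipocyte and endothelium markers had r = 0.65 and 0.62 (permutation p = 0.0856 and 0.117).

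Ikbkg, the gene of the regulatory subunit NEMO, was not called between genotypes. Its group means were 594 ± 49.2 and 549.8 ± 57.4 normalized counts in saline-infused IKKβ+/+ (SD, n = 5) and IKKβ-/- mice (n = 4), and 645 ± 63.3 and 630.0 ± 66.6 in Ang II-treated ones (n = 5 each). Its log2 fold change between genotypes was -0.07 ± 0.07 averaged over treatments, with a 95% interval from -0.22 to 0.08. The gene (chrX:74393290-74453854, plus strand) shares 418 exon bases with G6pdx on the other strand, and the sources do not state whether reads were counted by strand. G6pdx had a log2 fold change of -0.23 ± 0.10 between genotypes averaged over treatments (adjusted p = 0.203, limma).

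Among the upstream genes Ripk1, the receptor-interacting kinase that binds NEMO through ubiquitin chains, was lower in IKKβ-/- mice. Saline-infused mice had 707, 750.3, 785, 916 and 929 normalized counts of Ripk1 in the IKKβ+/+ group and 533, 578, 754 and 807 in the IKKβ-/- group. Ang II-treated mice had 721, 759, 832, 869 and 932 in the IKKβ+/+ group and 596, 641, 657, 721 and 768 in the IKKβ-/- group. Values overlapped between the genotypes under both infusions. Averaged over treatments the log2 fold change was -0.29 ± 0.09 (adjusted p = 0.0713, limma). The call was lost without X2385 and X2406 (-0.25, adjusted p = 0.243), with the mitochondrial share as a covariate (-0.16, adjusted p = 0.743) and with the macrophage score as a covariate (-0.27, adjusted p = 0.222). It was lost under array quality weights as well (-0.24, under the 1.2-fold limit), and without any of X2358, X2359, X2373, X2376, X2385, X2403 and X2406.

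Ripk1 (GRCm38 chr13:34002363-34037147, plus strand) shares 241 exon bases with Serpinb6a on the other strand, which had a log2 fold change of -0.04 ± 0.08 in the same comparison (adjusted p = 0.815, limma), and 511 with the pseudogene Gm17084 on its own strand.

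Traf6, the ubiquitin ligase of Toll and interleukin-1 signalling, had a log2 fold change of -0.25 ± 0.08 averaged over treatments. Its adjusted p was 0.0940 (limma), but the change stayed under the 1.2-fold limit, so it was not called. Array quality weights (-0.28, adjusted p = 0.0480) and the adipocyte score as a covariate (-0.27, adjusted p = 0.0611) brought it past both limits. Saline-infused mice had 415, 434, 446, 461 and 499 normalized counts of Traf6 in the IKKβ+/+ group and 347, 382, 420.3 and 459 in the IKKβ-/- group. Ang II-treated mice had 378, 449, 469, 481 and 546 in the IKKβ+/+ group and 315, 343, 371, 373 and 448 in the IKKβ-/- group. All but 1 of the Ang II-treated IKKβ-/- mice lay below every Ang II-treated IKKβ+/+ mouse. The gene lies on chr2:101678429-101701669 (plus strand). With the mitochondrial share as a covariate the log2 fold change of Traf6 was -0.11 (adjusted p = 0.812).

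Traf2, the adaptor of tumour necrosis factor receptors, had its larger genotype difference with Ang II. It lies on the same chromosome as Traf6 (chr2:25517982-25546940, minus strand). Ang II-treated IKKβ+/+ mice had 288, 303, 329, 351 and 383 normalized counts of Traf2, and Ang II-treated IKKβ-/- mice had 202, 237, 259.6, 268 and 328. The groups overlapped by the highest IKKβ-/- mouse, and the log2 fold change was -0.36 ± 0.13 (unadjusted p = 0.00982, adjusted p = 0.223, limma). With saline it was -0.05 ± 0.13. The difference between these values was -0.31 ± 0.19 (adjusted p = 0.527), so Traf2 was not shown to respond to the infusions unequally in the genotypes.

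Map3k7, the gene of TAK1, and Map3k14, the gene of NIK, were not called between genotypes. They lie on chr4:31964097-32023467 (plus strand) and chr11:103219762-103267472 (minus strand), and Map3k14 shares 135 exon bases with 1700028N14Rik on its own strand. Map3k7 had group means of 976 ± 64.7 and 939.6 ± 58.2 normalized counts with saline and 1044 ± 147 and 911 ± 95.2 with Ang II, each IKKβ+/+ before IKKβ-/-. Map3k14 had 107 ± 15.4 and 109.6 ± 8.11 with saline and 136 ± 20.7 and 130.3 ± 31.3 with Ang II in the same order. Averaged over treatments their log2 fold changes were -0.12 ± 0.07 and -0.03 ± 0.13.

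Of the IKK-related kinases, which act beside the IKK complex, neither was called between genotypes. Ikbke lies on chr1:131254343-131279606 (minus strand), where the antisense genes Gm28914 and Gm28913 share 159 and 65 of its exon bases, and Tbk1 lies on chr10:121546455-121586787 (minus strand). Ikbke had 115, 119.8, 143, 152 and 163 normalized counts in saline-infused IKKβ+/+ mice and 156, 174, 178 and 214 in saline-infused IKKβ-/- mice. In Ang II-treated mice Ikbke had 115, 118, 142, 146 and 185 in the IKKβ+/+ group and 113, 114, 170.2, 195 and 196 in the IKKβ-/- group. The groups overlapped, and the log2 fold change averaged over treatments was 0.26 ± 0.13 (adjusted p = 0.257, limma), the largest positive value among the members. Tbk1 had group means of 465 ± 35.0 and 464 ± 21.5 normalized counts with saline and 492 ± 45.6 and 429.6 ± 35.8 with Ang II, and a log2 fold change of -0.10 ± 0.07 averaged over treatments.

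The upstream sequences of the IKK-related kinase genes are shown because Ikbke and Tbk1 varied together more closely across mice than any other pair of members (r = 0.77). RefSeq promoters (GRCm38.p6) matched 9 of the 10 members, all but Ikbkb, and the 250 bases before the start were searched on both strands for GGG, any 5 bases and CC, a loose form of the κB motif in which matches may overlap. It was present for 7 of 9 members, taking the first listed start of each, and in 45.4% of 27025 promoters of the same length. Letters in capitals mark the motif, and the GC content of the 9 windows ran from 47.6 to 68.4% against a median of 52.0% over all promoters.
Ikbke, chr1:131279564-131279813, minus strand: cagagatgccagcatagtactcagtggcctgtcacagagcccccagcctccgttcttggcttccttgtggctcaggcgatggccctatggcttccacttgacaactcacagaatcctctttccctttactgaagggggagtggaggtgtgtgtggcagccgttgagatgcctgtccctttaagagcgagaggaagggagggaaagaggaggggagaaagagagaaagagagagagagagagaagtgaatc
Tbk1, chr10:121586795-121587044, minus strand: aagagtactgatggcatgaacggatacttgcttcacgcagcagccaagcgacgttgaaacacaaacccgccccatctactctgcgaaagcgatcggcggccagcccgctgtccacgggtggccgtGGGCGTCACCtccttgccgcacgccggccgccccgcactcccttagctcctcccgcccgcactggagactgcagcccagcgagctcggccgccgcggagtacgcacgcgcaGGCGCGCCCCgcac
The Tbk1 window held 2 matches and the Ikbke window 0. A match is a string of letters and was not tested as a binding site.

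Over the 10 members the median log2 fold change between genotypes was -0.11 averaged over treatments, against -0.02 over all genes tested. With Ang II 9 of 10 members had values under 0, where 50.9% of all genes did. With saline 7 of 10 did, where 52.4% of all genes did. These counts and the median include Ikbkb, the target of the deletion, and the members share their libraries. The counts are given as a description.

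**Figure D3:**
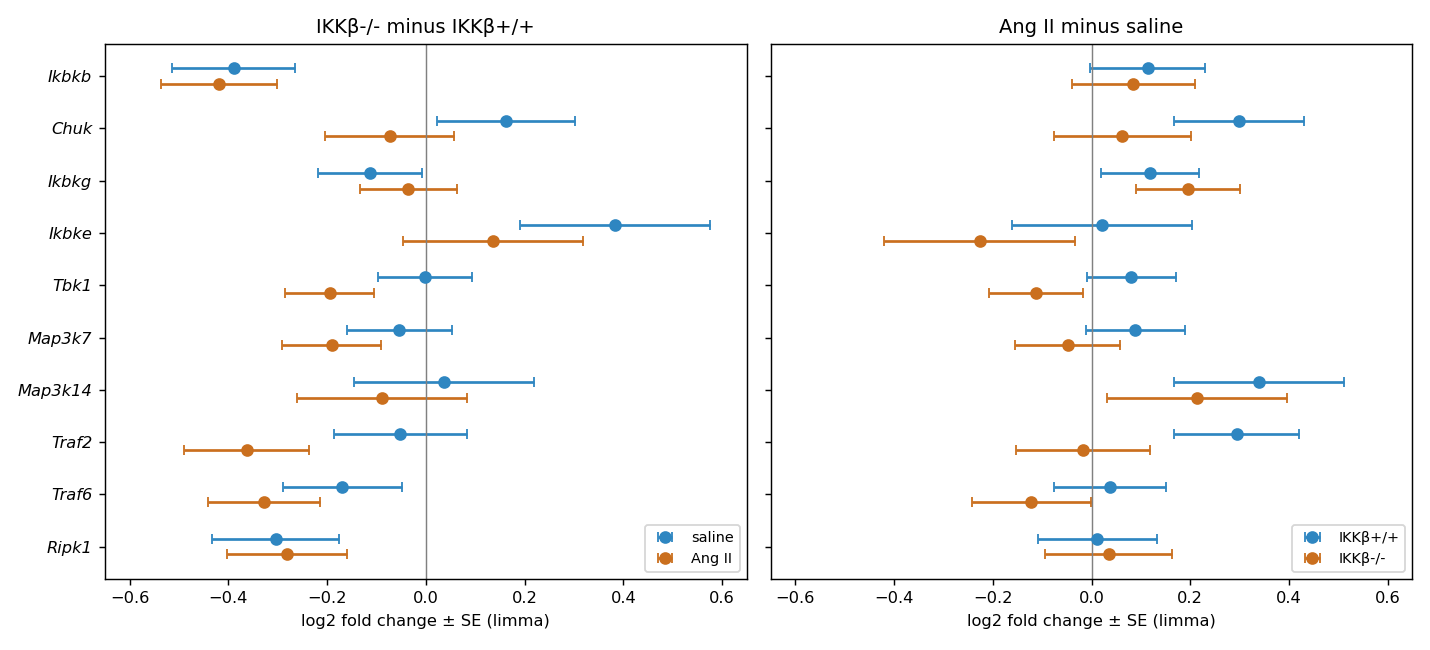
Log2 fold changes of the 10 genes with their SE from the limma fit, for IKKβ-/- minus IKKβ+/+ mice (left, by infusion) and for Ang II minus saline (right, by genotype). Ikbkb lies at -0.39 and -0.42 on the left, and on the right the IKKβ+/+ values of all 10 genes lie above 0, where 49.3% of all genes tested lie under 0.

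Ang II against saline asked whether the members responded within 24 h. In IKKβ+/+ mice 0 of 10 members were called by limma, where 8.66% of all genes were called, and 2 of 10 had an unadjusted p under 0.05, where 20.3% of all genes did. These were Chuk, with a log2 fold change of 0.30 ± 0.13 (adjusted p = 0.203), and Traf2, with 0.29 ± 0.13 (adjusted p = 0.195). All 10 members had values above 0, from 0.01 for Ripk1 to 0.34 for Map3k14, where 49.3% of all genes lay under 0. Their median was 0.10 against 0.01 over all genes tested. Ikbkb had 0.11 ± 0.12, with a 95% interval from -0.13 to 0.36. Summed smooth muscle markers also moved with the infusion, from a median of 419552 normalized counts in saline-infused to 564742 in Ang II-treated IKKβ+/+ mice, and with the smooth muscle score as a covariate no member was called. Of the 7 smooth muscle markers 2 were called, Tagln and Cnn1, and the median log2 fold change of the list was 0.22. Medians of the other lists ran from -0.84 for B cell to 0.97 for skeletal muscle markers, with -0.72 for endothelium, -0.55 for fibroblast and -0.53 for macrophage markers. The mitochondrial share moved as well, from 5.99 to 9.07% of the reads in saline-infused to 10.1 to 14.1% in Ang II-treated IKKβ+/+ mice.

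In IKKβ-/- mice 0 of 10 members were called (5.29% of all genes), 0 of 10 had an unadjusted p under 0.05 (17.8% of all genes), and 5 lay above 0, where 50.4% of all genes lay under 0. DESeq2 and edgeR called no member there either. The difference of the Ang II effect between genotypes was called for 0 of 10 members and for 0.0% of all genes by limma, with 0 of 10 members and 11.1% of all genes at an unadjusted p under 0.05. By edgeR 3 genes and by DESeq2 279 genes were called in that comparison, none of them a member. Averaged over genotypes 0 of 10 members were called by limma (12.7% of all genes), and 2 of 10 had an unadjusted p under 0.05 (24.7% of all genes), Ikbkg with a log2 fold change of 0.16 ± 0.07 (adjusted p = 0.183) and Map3k14 with 0.28 ± 0.13 (adjusted p = 0.178). G6pdx, which overlaps Ikbkg, rose in this comparison by 0.31 ± 0.10 on the log2 scale (adjusted p = 0.0678), and its part in the Ikbkg value was not tested. Without X2385 Map3k14 was called with 0.35, and DESeq2 called it with 0.31 (adjusted p = 0.0947). The shares of all genes called in those fits are not given here.

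Pairs of members were compared across the 19 mice as deviations from the group means. Of the 45 pairs, 2 passed an adjusted permutation p under 0.1. Ikbke and Tbk1, the IKK-related kinases, varied together (r = 0.77, adjusted permutation p = 0.0488; rho = 0.75, adjusted p = 0.0517), and r was 0.71 without the 2 mice farthest from the median. Ikbke and Ripk1 moved in opposite directions (r = -0.63, adjusted permutation p = 0.0488; rho = -0.62, adjusted p = 0.0517), and r was -0.60 without the 2 farthest mice. The median r of the 45 pairs was 0.03 and 23 of the pairs had r above 0. These values share their libraries and size factors.

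**Figure D4:**
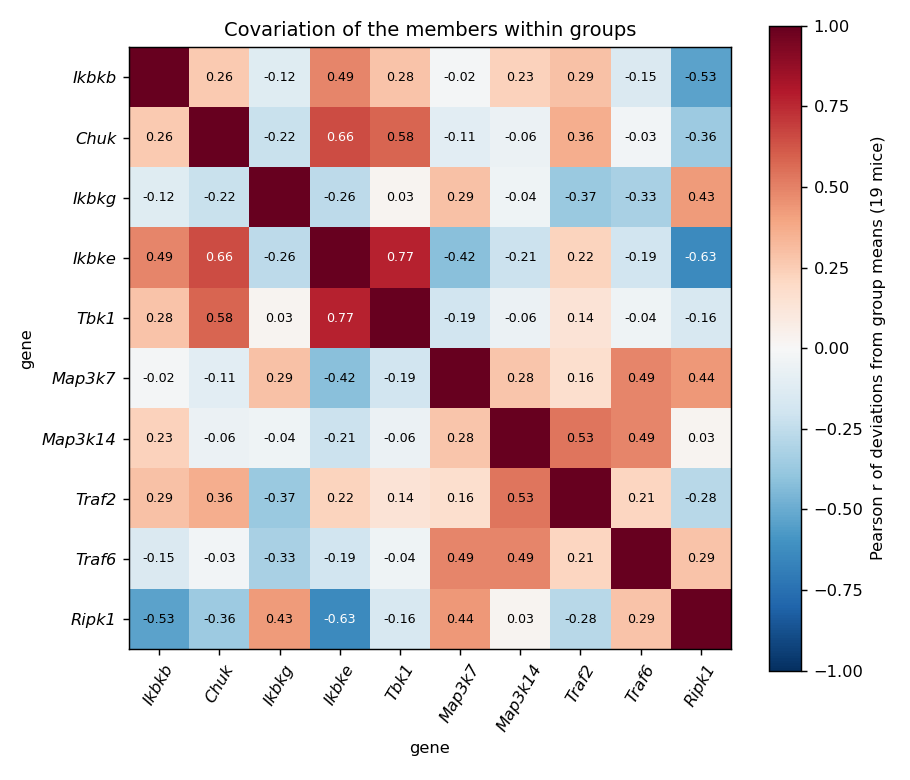
Pearson r between each pair of members (both axes list the genes), computed over 19 mice as deviations from the group means and shown by colour from -1 to 1. Ikbke and Tbk1 (0.77) and Ikbke and Ripk1 (-0.63) are the pairs that passed the adjusted test.

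Over the 19 mice the genes whose log2 values were most like those of Ikbkb, of 11421 genes with a mean of at least 50 normalized counts, were Pirb, Lcp1, Ctss, Scaf4 and Itgb2. Their Pearson r with Ikbkb was 0.83, 0.79, 0.79, 0.78 and 0.78, and as deviations from the group means 0.84, 0.59, 0.61, 0.66 and 0.34, in the same order. Pirb, Lcp1, Ctss and Itgb2 are known from leukocytes, where they encode a receptor, an actin-bundling protein, a cathepsin and an integrin chain. Among the other members r with Ikbkb ran from -0.08 for Ikbke to 0.56 for Traf2. The points share their libraries, and r is given as a description.

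The remaining genes of the pathway were read from 11 lists of 63 genes, all of which passed the filter. Averaged over treatments 1 of the 63 rose and 5 fell in IKKβ-/- mice, 9.52% against 7.24% of all genes. Tnfaip3, the deubiquitinase A20 that restrains IKK, had group means of 262 and 139 normalized counts in saline-infused IKKβ+/+ and IKKβ-/- mice and of 198 and 138 in Ang II-treated ones (log2 fold change -0.75 ± 0.16, adjusted p = 0.0251, limma). Traf3, which holds NIK at low levels, fell by 0.50 on the log2 scale (adjusted p = 0.0173). Of the 9 receptors 2 fell, Tnfrsf1b by 0.65 and Il1r1 by 0.46 on the log2 scale, and of the 9 IKK substrates Rel fell by 0.61. Peli1, an E3 ligase of the Toll and interleukin-1 pathway, rose by 0.57.

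With the mitochondrial share as a covariate 1 of these 6 genes stayed called, Tnfaip3, and without X2385 and X2406 2 did, Tnfaip3 and Traf3. With the macrophage score as a covariate Tnfrsf1b, Peli1 and Rel were no longer called, whereas Tnfaip3, Traf3 and Il1r1 were.

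With saline alone 1 of the 63 genes rose, Peli1 from 546 to 1003 normalized counts (log2 fold change 0.88 ± 0.20, adjusted p = 0.0464, limma), and 4 fell (Traf3, Tnfaip3, Tnfrsf1b and Il1r1), 7.94% in all, where 5.47% of all genes were called. The 5 calls became 0 without X2403, 1 without X2373 or X2406, 2 without X2370 or X2376, 3 without X2372 or X2401 and 11 without X2409, and ran from 0 to 9 over the other settings. With Ang II none of the 63 was called by limma (0.128% of all genes). DESeq2 called 5, and limma called up to 6 with a mouse left out (X2356). The 0.128% belongs to the main limma fit only, and the shares of all genes in those other fits are not given here.

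Ang II in IKKβ+/+ mice raised 2 and lowered 3 of the 63 genes, 7.94% where 8.66% of all genes were called, so that the share was near the general rate. The 5 calls became 2 without X2350, X2358, X2373 or X2376 and 3 without X2378. Nfkbia, which encodes IκBα and is both a substrate of the IKK complex and a target of NF-κB, rose from 738 to 1388 normalized counts (log2 fold change 0.89 ± 0.18, adjusted p = 0.0107, limma). Casp8, the apoptotic protease recruited by RIPK1 and FADD, rose by 0.37. Map3k1 and Map3k2, kinases of the same family as TAK1, fell by 0.80 and 0.37, and Card10, the scaffold CARMA3 that links Ang II receptors to the complex, fell by 0.82 on the log2 scale. In IKKβ-/- mice the infusion lowered 2 of the 63 genes, 3.17% where 5.29% of all genes were called, Malt1 by 0.89 and Peli1 by 0.66 on the log2 scale, and raised none. With the adipocyte score as a covariate neither was called. The count became 0 without X2401, 1 without X2376, X2384, X2386, X2403 or X2409 and 4 without X2350, and Peli1 was not called in 7 of the 19 fits that left out a mouse. Nfkbia there stood at 1083 with saline and 1105 with Ang II, and 0 of the 63 genes passed the limma test of the difference of the Ang II effect between genotypes. DESeq2 called 3 in that test.

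Averaged over genotypes Ang II raised 4 of the 63 genes (Ripk3, Myd88, Il1r1 and Nfkbia) and lowered 3 (Map3k2, Malt1 and Agtr1b), 11.1% in all where 12.7% of all genes were called, and 4 in all without X2401. The summed adipocyte markers moved with the infusion in IKKβ-/- mice, from a median of 103 to 2346 normalized counts, and with the adipocyte score as a covariate none of these 7 was called.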

How the data were processed

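Poly(A) RNA of the SRA from 19 mice was sequenced as stranded single-end libraries. The authors trimmed reads with Trimmomatic 0.35, aligned them with STAR 2.7.1a to GRCm38 and normalized gene read counts with DESeq2 1.30.1. What the authors deposited is a signal per gene and mouse, the normalized count (reads over the size factor of that mouse). Whole reads were recovered for 100.0% of the values (tolerance 0.001). A gene was tested if 4 or more mice reached 10 normalized counts (14845 kept, 5563 left out) with limma 3.58.1 in R 4.3.3, with a trend, on log2(normalized count + 1), a scale that understates the change of low genes, fitting 4 group means. Two-sided p-values received Benjamini-Hochberg adjustment across the genes tested. Single values were compared by exact permutation tests, and correlations by 100000 permutations within groups. The score of a marker list is the mean log2 value of its genes. Transcript lengths came from Gencode mouse release M21, with the longest principal transcript of each gene. Alternatives were a pseudocount of 4, no filter, only the groups compared, TMM scaling and the quasi-likelihood test of edgeR 4.0.16, DESeq2 1.42.0, array quality weights, smooth muscle or adipocyte score as covariate, an adjusted p under 0.05 and each mouse left out. The mitochondrial share and the macrophage score as covariates and the removal of X2385 and X2406 were chosen after seeing the data. Simulated data served to test the fit. The 10 genes, the lists and the tests were chosen with earlier results of these data known. All members are named. Other pathway genes are named if called in at least 1 comparison, at most 3 per list, and the 5 genes most like Ikbkb by r. Replicates are separate mice, and p-values set a difference or a relation against the spread between them. In limma that spread was pooled over the 4 groups, so it is not the spread of either genotype alone.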

Additional observations from a re-analysis of the deposited data

Results flagged for a closer look

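Of 44 sets of values (each member, and the ratio of Ikbkb to Chuk, in each group), 2 held a mouse far from the others by Dixon's test, where chance flags about 1 in 20. Among saline-infused IKKβ+/+ mice X2372 had 511 normalized counts of Chuk, against 456 in the next mouse. Among Ang II-treated IKKβ+/+ mice X2358 had 756 normalized counts of Ikbkg, against 632 in the next.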

How the results depend on the processing

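No paired analysis was possible because mouse numbers are not shared between groups. Of the 10 members, the number called for Ang II against saline in IKKβ+/+ mice was 0 and became 1 with array quality weights. The number called between genotypes with saline, 1, became 0 with no filter, the adipocyte score, an adjusted p under 0.05, the mitochondrial share, the macrophage score, or without X2385 and X2406, and with the smooth muscle score the 1 gene called was Ripk1 in place of Ikbkb. It ran from 0 to 1 with each mouse left out and was 0 without 14 of the 19 mice. With Ang II the number was 1 with DESeq2 and 0 to 2 with each mouse left out. Averaged over treatments it was 2 with array quality weights (Ikbkb and Traf6 in place of Ripk1), 3 with the adipocyte score (Traf6 added), 1 with an adjusted p under 0.05, with the mitochondrial share and without X2385 and X2406, 0 with the macrophage score, and 1 to 3 with each mouse left out. For Ang II averaged over genotypes it was 1 with DESeq2 and without X2385 and X2406, and 0 to 1 with each mouse left out. Ikbkb averaged over treatments stayed called in every setting but the macrophage score, with log2 fold changes from -0.55 to -0.30, and from -0.44 to -0.36 with each mouse left out. Its level difference ran from -184 to -154 normalized counts and its log2 ratio to Chuk from -0.49 to -0.40 with each mouse left out. The r of Ikbkb with the smooth muscle score ran from -0.94 to -0.61 in IKKβ-/- mice, with a permutation p over 0.05 without X2383, X2384, X2406 or X2409, and from -0.17 to 0.21 in IKKβ+/+ mice, where it turned negative without X2356 (-0.17), X2372 (-0.17), X2373 (-0.03) or X2376 (-0.06). Genes called in the average genotype comparison numbered 1075, 21 with the mitochondrial share, 486 with the macrophage score, 353 with an adjusted p under 0.05 and 81 without X2385 and X2406. The causes were not tested. Group sizes of 4 and 5 and the counting error of low genes such as Map3k14 limit what could be seen.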
